A study of Homo sapiens with 2 samples.

Results

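The genes described here are 10 intermediate filament genes, the simple epithelial keratins KRT7, KRT8, KRT18, KRT19, KRT20 and KRT23, the epidermal keratin KRT10, vimentin (VIM), desmin (DES) and nestin (NES). They were chosen by name, all 10 were matched to an identifier, and the table holds 57158 genes in all. The samples were liver progenitors made from CyT49, an established human embryonic stem cell line. The cells had reached definitive endoderm at day 2, were then held in suspension for 6 days in 50 ng/ml BMP4, 10 ng/ml FGF2 and 0.2% serum, and were collected at day 8. Poly(A) RNA was sequenced in 2 strand-specific libraries of this 1 group, so no untreated, earlier or mature sample was compared, and all cells came from 1 line. Values are RPKM, reads scaled to the length of the gene and to the depth of the library, and the table lists every value under 0.5 RPKM as 0.1, which is called the floor below.

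Intermediate filaments are the rope-like part of the cytoskeleton. Keratin filaments form only when a type I chain pairs with a type II chain, and in simple epithelia the usual pair is KRT8 (type II) with KRT18 (type I). Adult hepatocytes keep essentially this pair, bile duct cells add KRT7 and KRT19, and hepatoblasts, the fetal precursors of both, carry KRT19 as well. VIM is the filament protein of mesenchyme and of many cultured cells, DES that of muscle and of hepatic stellate cells, and NES that of neural and other progenitors.

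The values implied 25182529 reads in library 1 and 25264419 in library 2. Over 1030 single-exon genes with a mean of 50 reads or more, the libraries differed by 1.05 times the variance that counting alone gives. They were therefore counted as 1 sample, and the gap between the values given for each gene was taken to cover technical error only. The labels call the libraries replicate 1 and replicate 2 and name no separate cultures, so whether they come from separate cultures is not known. Markers were read beside the label. Their list was chosen with earlier results of these data known, so it is no independent check. All 8 hepatoblast markers reached 1 RPKM in both libraries, beside 59.8% of protein-coding genes. AFP stood at 707 and 705 RPKM. ALB, the lowest of the 8, stood at 6.84 and 6.53 RPKM against a list median of 592. In bulk RNA, fewer cells of a type and less RNA per cell cannot be told apart.

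Of the 10 genes, 6 reached 1 RPKM in both libraries, beside 59.8% of 19344 protein-coding genes, so the number detected was near the background. The 6 were KRT19, KRT8, KRT18, VIM, NES and KRT10, in that order of RPKM. The libraries' values did not overlap between any neighbours in the order. In both libraries KRT7, KRT20, KRT23 and DES stood at the floor. The same 6 passed a limit of 0.5 RPKM, which 65.1% of protein-coding genes passed, and one of 5 RPKM, which 35.4% passed. Of the 10, 3 genes stood at 100 RPKM or more, a level that 1.3% of protein-coding genes reached.

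**Figure D1:**
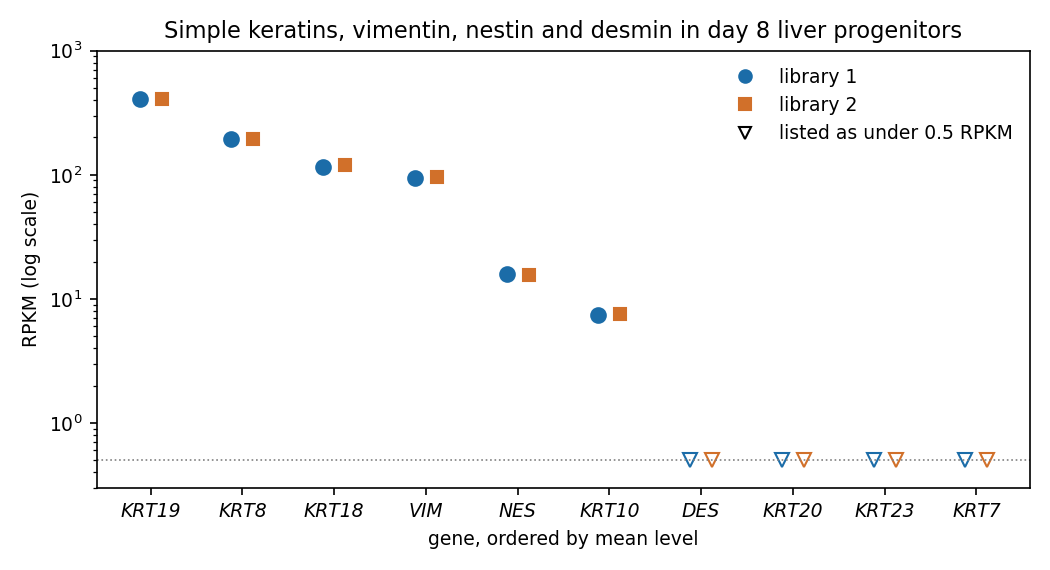
RPKM on a log axis for the 10 genes, with a circle for library 1 and a square for library 2; open triangles stand at 0.5 RPKM for genes listed under it. KRT19 is highest at 406 and 411 RPKM, KRT10 is the lowest detected at 7.35 and 7.49, and 4 genes lie under 0.5 RPKM.

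Among type II keratins, KRT8, the partner of KRT18 and KRT19, had 194 RPKM in the first library and 193 in the second. It ranked 128 of 19344 protein-coding genes. It is ENSG00000170421.7, on chromosome 12 from 53290971 to 53343738 on the minus strand of GRCh37 (hg19), and its main transcript has 8 exons and 1784 bases. KRT7, which pairs with KRT19 in bile ducts and many glandular epithelia, was listed at 0.1 in both libraries, which on its main transcript of 1625 bases means under 20.5 reads. KRT8 was thus at least 387-fold higher than KRT7, taking KRT7 at 0.5 RPKM. The other 24 type II keratin genes were at the floor as well. Even with all 25 at 0.5 RPKM, they would add 12.5 RPKM, or 6.46% of the KRT8 level, so KRT8 held nearly all type II keratin RNA that was measured.

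The type I partners were 3. KRT19, the smallest keratin, which lacks most of the tail domain, had 406 RPKM in the first library and 411 in the second, rank 56 of the protein-coding genes. It is ENSG00000171345.9, on chromosome 17 from 39679869 to 39684560, with 6 exons. KRT18 stood at 117 and 121 RPKM, rank 217, and is ENSG00000111057.6 on chromosome 12 from 53342655 to 53346690, with 7 exons. The gap between libraries was 3.63% of the KRT18 level, and counting alone gives a standard deviation of 2.18% for that gap. KRT10, the partner of KRT1 in the upper layers of skin, stood at 7.35 and 7.49 RPKM, on an estimated 397 and 406 reads, and is ENSG00000186395.6 on chromosome 17 from 38974369 to 38978866. KRT1 itself was at the floor. KRT20, a keratin of intestinal and urothelial surface cells, and KRT23, which is switched on in injured liver, were both listed at 0.1 in both libraries. On their main transcripts that means under 22.7 reads for KRT20 and under 27.8 for KRT23. Outside the named keratins, KRT222 was the only gene of 48 above the floor, at 0.96 and 0.91 RPKM. In all, 4 of 55 keratin genes were detected at 1 RPKM, beside 59.8% of protein-coding genes.

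In RPKM, type I keratins stood above type II keratins at the RNA level. Summed over each type, type I keratins were 2.75-fold higher than type II, with a log2 ratio of type II to type I of -1.44 in library 1 and -1.47 in library 2. KRT8 stood 1.63-fold above KRT18, its usual partner, and KRT19 2.11-fold above KRT8 and 3.44-fold above KRT18. When the reads listed for pseudogene copies were added to their parent genes, the excess of type I over type II was 1.63-fold and that of KRT19 over KRT8 1.13-fold, while KRT8 was 2.09-fold above KRT18. The order of the 6 detected genes was the same with the copies added. Adding the reads of the copies therefore changed the size of these ratios. The ratios with copies added also depend on the gene lengths assumed. The main transcript was used, which for KRT8 has 1784 bases against 6881 over all its exons, and no other length was tried.

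VIM, the type III protein, had 94.4 RPKM in the first library and 95.8 in the second, rank 271. It is ENSG00000026025.9, on chromosome 10 from 17270240 to 17279592, with 10 exons. KRT18 lay 1.25-fold above it and KRT8 2.03-fold above it, or 3.96-fold with the copies of KRT8 added. DES was listed at 0.1 in both libraries, under 28.2 reads on its main transcript, so VIM was at least 190-fold higher than DES. NES, a long type IV protein that needs VIM or another partner to enter filaments, stood at 15.9 and 15.5 RPKM, 6.06-fold below VIM and 2.12-fold above KRT10. It is ENSG00000132688.10, on chromosome 1 from 156638555 to 156647199, with 4 exons. The type III proteins GFAP of astrocytes and PRPH of peripheral neurons were at the floor, as were SYNM and NEFM, which leaves INA (2.28 and 2.41 RPKM) and NEFH (1.05 and 1.10), both neuronal filament subunits. In all, 4 of 9 type III and IV genes with a value were detected (44.4%, beside 59.8% of protein-coding genes).

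Over all keratin and type III and IV genes, KRT19 held 48.1% of the summed RPKM, KRT8 22.8%, KRT18 14.0%, VIM 11.2%, NES 1.85% and KRT10 0.874%. The shares of each gene in the libraries lay close together, for KRT18 at 13.8% and 14.1%. Keratins thus made up most of the filament RPKM. With the copies added, KRT19 held 38.4%, KRT8 33.9%, KRT18 16.2% and VIM 8.55%.

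Marker lists of other cell types were read beside the VIM, NES and DES values. Of 10 stellate and mesenchyme markers, 6 were detected, led by PDGFRA (18.5 and 17.9 RPKM) and TAGLN (12 and 11.8), with a summed level of 50.5 RPKM in library 1 and 50.1 in library 2. That is 60%, beside 59.8% of protein-coding genes. Of the matrix genes in the list, COL1A1 (8.29 and 8.30 RPKM), COL1A2 (5.18 and 5.09) and LUM (3.39 and 3.16) were detected, and COL3A1 and DCN were at the floor. LRAT (0.816 and 0.817 RPKM) and ACTA2 (at the floor in library 1 and 0.562 in library 2) were not detected either. Of 8 neural markers, 1 was detected, DCX (1.68 and 1.49 RPKM), the list summed to 2.38 and 2.19 RPKM, and SOX1, SOX2 and PAX6 were at the floor. All 8 muscle markers and all 6 keratinocyte markers were at the floor, and of 5 endothelial markers with a value KDR alone was detected, at 1.60 and 1.61 RPKM. Of 5 mesothelial markers 2 were detected, PODXL at 47.1 and 47.2 RPKM and LRRN4 at 1.19 and 1.07, while WT1 and MSLN were at the floor. Detected shares were 0% for the muscle and keratinocyte lists, 12.5% for the neural, 20% for the endothelial and 40% for the mesothelial list, beside the 59.8%. The part of such cells in the VIM and NES levels was not tested.

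For KRT19 and KRT7 the matching list was that of bile duct cells. Of 7 cholangiocyte markers with a value 5 were detected (71.4%, beside 59.8% of protein-coding genes), namely KRT19, EPCAM (124 and 123 RPKM), SPP1 (17.3 and 17.5), SOX9 (9.04 and 9.90) and CFTR (2.56 and 2.95), while KRT7 and SCTR were at the floor. For KRT20 the intestinal list, with 2 of 6 detected (33.3%), gave VIL1 at 30.3 and 29.7 RPKM and CDX2 at 2.13 and 2.11, with MUC2, LGALS4 and CDH17 at the floor. For KRT7 as a trophoblast and amnion marker, 3 of 7 were detected (42.9%), CGA (133 and 138 RPKM), GATA3 (10.3 in both) and ISL1 (1.06 and 1.10). KRT7, TFAP2A, HAND1 and VTCN1 of that list were at the floor. Each of these lists counts the keratin it was read beside. KRT19 and KRT7 are in the cholangiocyte list, KRT20 is in the intestinal list and KRT7 is in the trophoblast list. The detected shares are thus not independent of these keratins.

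Keratin genes lie in a pair of clusters, type II with KRT18 on chromosome 12 and the other type I genes on chromosome 17. On chromosome 12 the cluster held 27 keratin genes over 784 kb, and 25 of them were at the floor. The 2 detected ones, KRT8 and KRT18, are the last 2 in the row. They lie on opposite strands, and in GENCODE their exons share 525 bases, because some KRT8 transcripts start inside KRT18. The nearest other keratin, KRT78, begins 48.1 kb away and was at the floor. On chromosome 17 the cluster held 28 genes over 970 kb with 25 at the floor. Of all protein-coding genes, 65.1% reached 0.5 RPKM in both libraries. KRT19 sits 1.09 kb from KRT15 and 37.5 kb from KRT9, both at the floor, and KRT10 lies between KRT28 and KRT12, both at the floor. KRT20 and KRT23 are neighbours of each other, 37.5 kb apart.

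**Figure D2:**
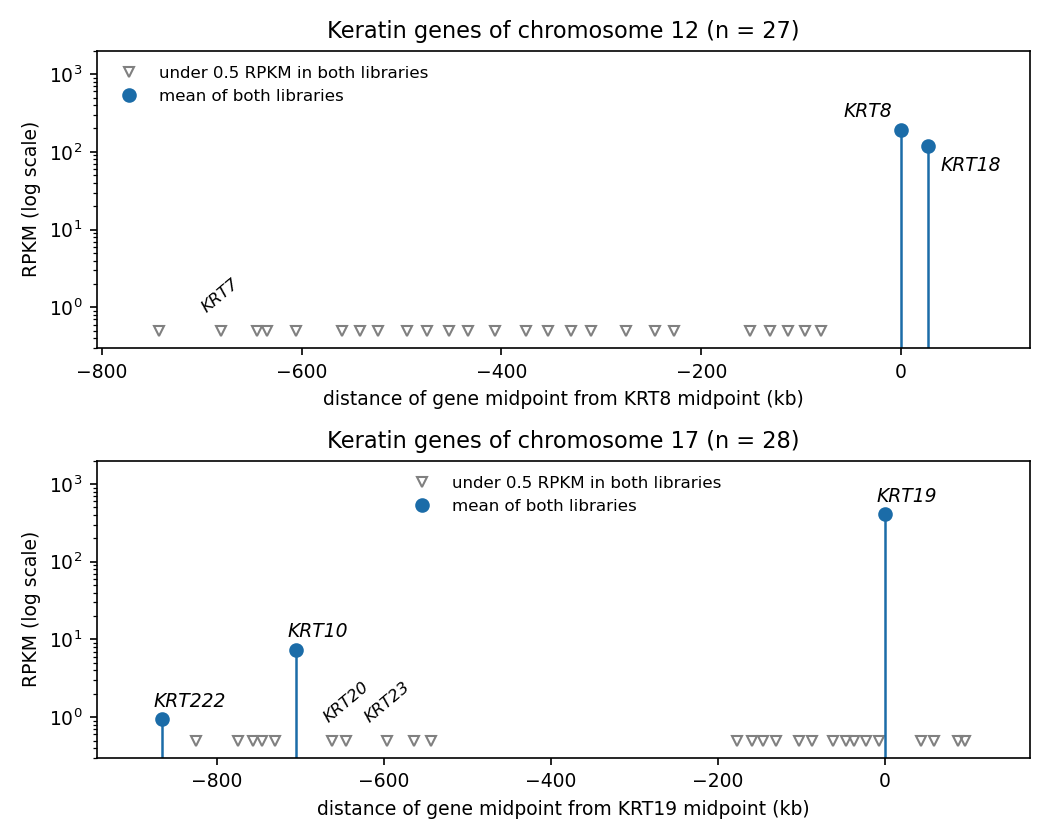
Mean RPKM on a log axis for each keratin gene of chromosome 12 (upper panel, 27 genes) and chromosome 17 (lower panel, 28 genes), placed by the distance in kb of its midpoint from that of KRT8 or KRT19; open triangles mark genes listed under 0.5 RPKM in both libraries. KRT8 and KRT18 stand at the edge of their cluster, while KRT19, KRT10 and KRT222 are separated by genes under 0.5 RPKM.

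KRT8, KRT18 and KRT19 have many processed pseudogenes, copies of their spliced RNA that were inserted elsewhere in the genome, and these are listed apart in the table. No numbered pseudogene of the other 7 genes was listed. The table holds 51 copies of KRT8, 67 of KRT18 and 5 of KRT19, in all 123, of which 48 were above the floor in at least 1 library and 75 at the floor in both. At 1 RPKM in both libraries, 17 KRT8 copies, 14 KRT18 copies and 1 KRT19 copy were detected, beside 26.3% of all 57158 genes. In single-exon copies, 41 of 42 values in library 1 were whole read numbers within 0.1 of a read.

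The highest KRT8 copy, KRT8P3, had 92.7 RPKM in the first library and 90.2 in the second, or 3382 and 3298 reads. KRT8P33 followed with 36.7 and 38.2 RPKM, KRT8P45 with 33.2 and 33.7, and KRT8P10 with 21.9 and 21.0. KRT8P51, a short fragment, had 8.73 and 10.6 RPKM on 60 and 73 reads. These copies were 97.1%, 95.9%, 95.6%, 91.8% and 95.6% identical to the KRT8 transcript over their aligned bases. The 22 copies above the floor held 8270 reads in library 1 and 8256 in library 2, which is 95% and 94.8% of the reads estimated for KRT8 itself. That estimate takes the main transcript as the length the authors used, and the true length is not given in the sources used here. With these reads added, KRT8 came to 378 RPKM in library 1 and 376 in library 2.

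KRT18P11 had 11.1 RPKM in the first library and 10.6 in the second, KRT18P29 had 9.69 and 8.50, KRT18P17 had 9.66 and 8.24, and KRT18P48 had 9.33 and 6.98. The 25 copies above the floor in either library held 2333 and 2073 reads, or 56.3% and 48.1% of the reads estimated for KRT18 itself. The KRT18 copies had fewer reads in library 2. The 22 that were above the floor in both had 2291 reads in library 1 and 2054 in library 2, a ratio of 0.894 after depth (95% exact binomial interval 0.842 to 0.949, counting error only), and 16 of the 22 were lower in library 2. For KRT18 itself the ratio was 1.04 (0.993 to 1.08), on reads estimated from the main transcript of 1413 bases. Its exons cover 3069 bases in all, and the interval depends on the length assumed. For the KRT8 copies it was 0.995 (0.965 to 1.03). Among the genes and copies given such an interval, only that of the KRT18 copies left out a ratio of 1, so this contrast was picked from several. The copies share sequence and the same libraries, so they are not independent and their tally is a description only. With the copies added, KRT18 was 182 RPKM in library 1 and 179 in library 2. Whether reads passed between KRT18 and its copies in the counting was not tested.

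To show how close the KRT19 copies are, 90 coding bases of KRT19 are set above the copy over the floor and 1 copy at the floor. Capitals mark bases that differ from KRT19. The stretch is coding bases 190 to 279 in exon 1, chr17:39684221-39684310 on the minus strand of GRCh37, with KRT19P1 at chr6:72294605-72294694 (plus) and KRT19P2 at chr12:95227989-95228078 (plus).
KRT19: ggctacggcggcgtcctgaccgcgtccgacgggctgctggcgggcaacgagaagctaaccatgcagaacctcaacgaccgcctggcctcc
KRT19P1: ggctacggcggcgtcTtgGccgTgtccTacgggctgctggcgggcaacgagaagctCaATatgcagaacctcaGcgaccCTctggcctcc
KRT19P2: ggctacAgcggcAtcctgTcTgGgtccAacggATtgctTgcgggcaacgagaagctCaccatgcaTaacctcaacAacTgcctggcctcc
KRT19P1 differed at 10 bases here and KRT19P2 at 13. KRT19P1 had 20.7 RPKM in the first library and 21.5 in the second, or 618 and 643 reads, 4.34% and 4.46% of those estimated for KRT19, and the other 4 copies were at the floor. Copies thus changed the KRT19 level little and that of KRT8 much. Between the 10 genes themselves coding sequences were 61.4% (KRT10 and VIM) to 76.8% (KRT7 and KRT8) identical over aligned bases, and VIM and DES were 70.6% identical.

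Copies with more sequence in common with the parent had higher values. Each parent transcript was cut into all its windows of 50 bases, and a window was counted as shared when it stood unchanged in a copy. KRT8 had 1735 windows, of which 677 (39.0%) stood in at least 1 of its copies, KRT18 had 481 of 1364 (35.3%) and KRT19 24 of 1341 (1.79%). For KRT10, KRT20, KRT23, VIM, NES and DES no window stood in the same direction in a transcript of another gene, and for KRT7 17 of 1576 did, mostly in KRT6 genes and PRPH. All 22 KRT8 copies above the floor shared a window with KRT8, and 11 of 29 at the floor did. For KRT18 it was 24 of 25 and 19 of 42. The median identity was 92.4% in KRT8 copies above the floor and 90.4% in those at the floor, and 92.1% and 90.7% for KRT18. Across the 51 KRT8 copies, Spearman's rho between mean RPKM and the number of shared windows was 0.79, and across the 67 KRT18 copies 0.73. These copies share the same 2 libraries and a common ancestor sequence, many are tied at the floor, and the values are descriptions only.

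**Figure D3:**
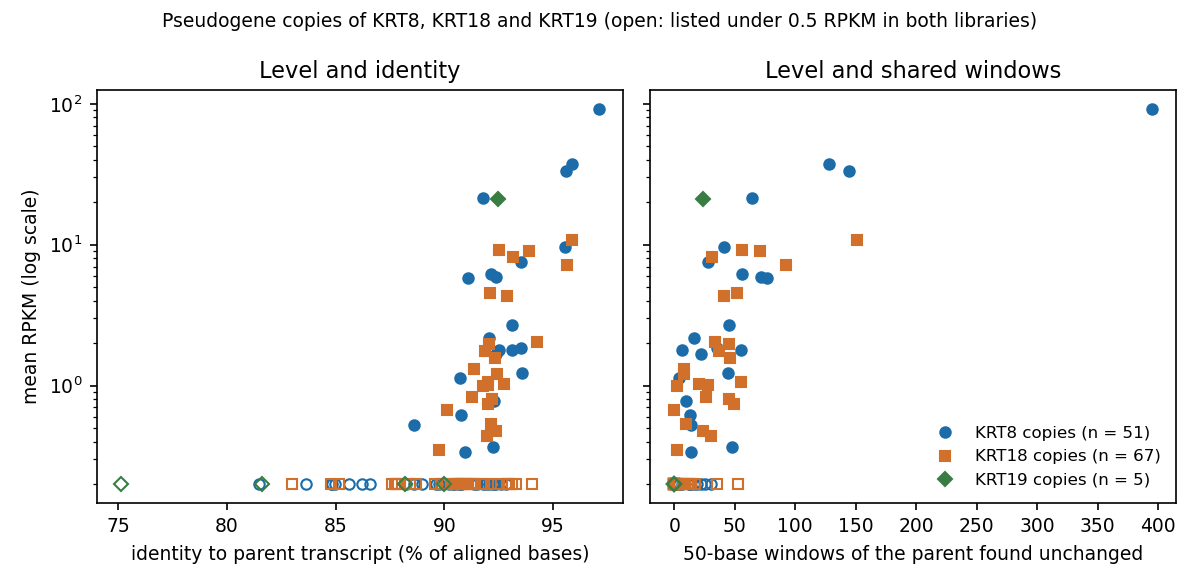
Mean RPKM on a log axis of each pseudogene copy against its identity to the parent transcript (left) and against the number of 50-base parent windows found unchanged in it (right); open symbols are copies listed under 0.5 RPKM in both libraries, drawn at the bottom, and filled symbols under 0.5 RPKM were above it in 1 library. The KRT8 copy with the most shared windows, 395, is also the highest at 91.5 RPKM, and no copy under 88.6% identity is filled.

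Antisense genes share exons with several of the 10 genes. VIM-AS1 had 6 RPKM in the first library and 5.35 in the second, and 28.1% of the VIM windows stood in its transcripts in reverse. ENSG00000234961, also antisense to VIM, had 6.95 and 7.08 RPKM, with 9.69% of the VIM windows. KRT10-AS1 stood at 3.47 and 3.30 RPKM, with 0.669% of the KRT10 windows. KRT7-AS was at the floor, like KRT7. The KRT8 transcripts that run through KRT18 held 23.9% of the KRT18 windows in reverse. The libraries keep the strand, but whether the counting used it is not given in the sources used here, so the levels of these pairs are uncertain to that extent.

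RNA levels of genes whose proteins anchor keratin filaments were read beside those of KRT8, KRT18 and KRT19. The median level of all protein-coding genes was 2.42 RPKM, and that of each list is given against it. Of 13 desmosome genes, the junctions to which keratins attach, 7 were detected with a median of 11.0 RPKM, led by JUP (plakoglobin, 62.7 and 62.4 RPKM), PERP (48.0 and 49.7) and DSG2 (28.8 and 28.7). DSG1, DSG3, DSC1, DSC3 and PKP1, which belong to stratified epithelia, were at the floor. Of 6 plakins and other linkers with a value, 5 were detected with a median of 9.94 RPKM, led by DSP (desmoplakin, which ties keratin to the desmosome, 59.4 and 60.8), PLEC (plectin, 17.2 in both) and PPL (12.4 and 12.5), and EVPL was at the floor.

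Of 11 chaperones, kinases and organisers of keratins, 9 were detected with a median of 11.5 RPKM. The highest were YWHAZ, a protein of the 14-3-3 family that binds phosphorylated KRT18, at 56.2 and 56.5 RPKM, the small heat shock protein HSPB1 at 26.3 in both, FAM83H, which places the kinase CSNK1A1 on keratin, at 22.9 and 22.3, and CSNK1A1 at 19.5 and 19.4. The lowest were TGM2 (0.774 and 0.840 RPKM), PRKCE (0.995 and 1.09) and TCHP (1.77 in both). All 7 kinases known to act on VIM or NES were detected with a median of 11.2 RPKM, and the mitotic kinases PLK1 (21.8 and 21.5) and AURKB (21.2 and 19.7) were the highest. The nuclear lamins were detected too, with LMNB2 at 38.7 and 39.1 RPKM and LMNB1 at 35.7 and 36.6, above LMNA at 8.72 and 8.78. Beside the 59.8% of protein-coding genes, 53.8% of the desmosome genes, 83.3% of the linkers, 81.8% of the chaperone list and all kinases and lamins were detected, on 3 to 13 genes a list and with no test.

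Transcription factors that favour or repress epithelial genes were read as a pair of lists. Of 12 epithelial factors 6 were detected (50%, beside 59.8% of protein-coding genes), with a median of 0.594 RPKM, led by KLF5 (6.39 and 6.07) and OVOL2 (4.44 and 4.21), a repressor of mesenchymal genes. KLF4, EHF, TP63, TFAP2A, TFAP2C and GRHL3 were at the floor. Of 6 factors of the epithelial to mesenchymal transition, 2 were detected (33.3%), SNAI1 (8.92 and 8.98 RPKM) and SNAI2 (2.17 and 2.18), while ZEB1, ZEB2, TWIST1 and TWIST2 were at the floor. SNAI1, KLF5 and OVOL2 thus lay above the protein-coding median of 2.42 RPKM, and the other detected factors lay near or under it. VIM at 95.1 RPKM thus stood beside 2 detected factors of that transition, SNAI1 and SNAI2, and 4 under 0.5 RPKM.

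**Figure D4:**
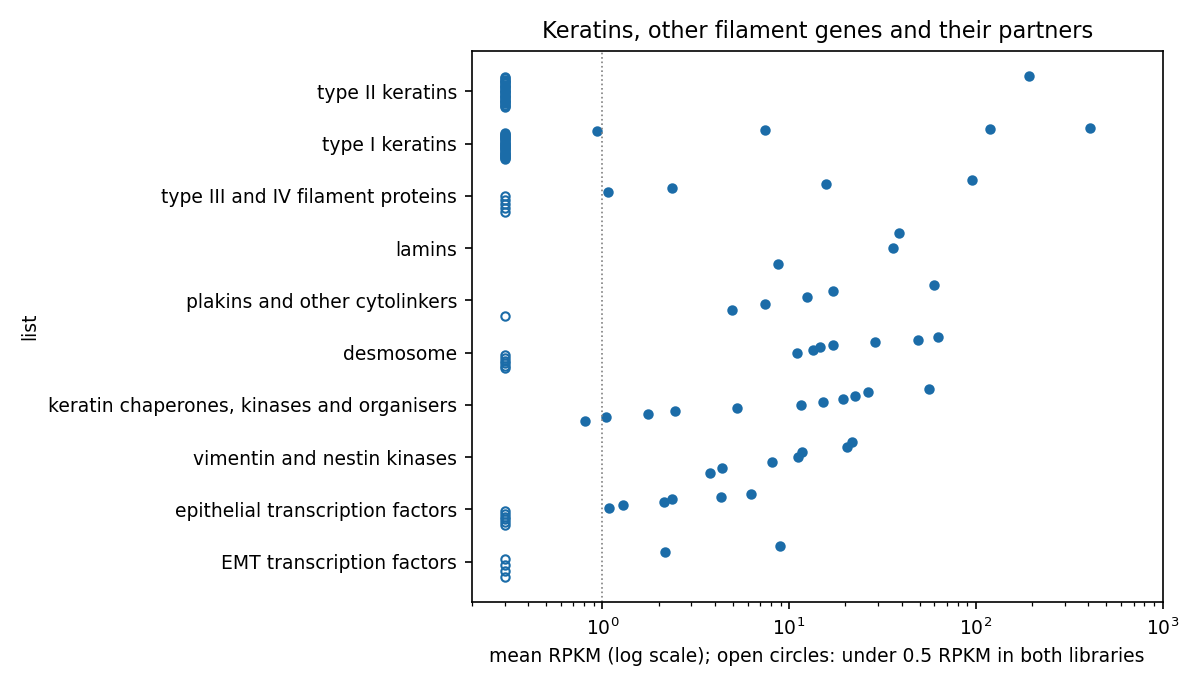
Mean RPKM on a log axis of each gene in 10 lists of filament genes and their partners, with the dotted line at 1 RPKM and open circles, drawn at the left edge, for genes under 0.5 RPKM in both libraries. Among keratins 50 of 55 genes are open and 3 stand above 100 RPKM, whereas lamins, the chaperone list and the kinases have no open circle. Of all protein-coding genes, 65.1% reached 0.5 RPKM in both libraries.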

How the data were processed

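The deposited table gives 1 RPKM value per gene and library, which the authors had scaled by gene length and read depth. Per the submitters' processing notes the build was hg19 and the tools FastQC 0.10.1, STAR 2.3.0e and Cufflinks 2.2.0, with no roles given, and the series text names Sailfish. From the values, every number under 0.5 had been set to 0.1, in 39548 genes of library 1 and 39542 of library 2.

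Identifiers were joined without version to GENCODE release 44 on GRCh37, and 54428 of 57158 (95.2%) matched. NEFL, EPPK1 and PECAM1 were not matched and have no value here. Some sequences are not reported here. Sequencing depth came from single-exon genes, where RPKM times length less 1 base gave whole reads within 0.02 of a read in 83.1% (library 1) and 83.2% (library 2) of genes under 500 reads. Reads of genes with several exons are estimates that use the main transcript's length. RPKM are not counts, and with 1 group of 1 sample no test was made. Intervals cover counting error only, since PCR reads are not independent molecules. The library check and the depth estimate were tested on simulated data.

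Detection meant at least 1 RPKM in each library. Copies are genes named after a member with P and a number, aligned locally to the parent's main transcript with Biopython 1.88. KRT19, VIM and the other members and all lists were chosen with earlier results of these data known. Named are all members, detected filament genes, up to 4 highest and 3 lowest genes of each list and the 10 highest copies. Other genes at the floor, LRRN4, LRAT, copies at the floor that are printed as sequence, and overlapping genes were chosen after their values were seen.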

Additional observations from a re-analysis of the deposited data

How the results depend on the processing

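0 recomputed values changed sign, and the gene length behind the RPKM was not varied. Either library alone left the 6 detected members in the same order, and levels, ratios and shares from 1 library cannot leave the gap between the libraries, so they say nothing of stability. A limit of 0.5 RPKM moved 0 of 21 counts by over 1.5 times, and a pseudocount of 0.1 moved 0 of 6 ratios by more than that gap. Adding the reads of the copies to their parents moved 14 values by its construction. Levels became 377 RPKM for KRT8, 180.4 for KRT18 and 427 for KRT19. Log2 ratios became -0.70 for type II over type I keratins, 1.06 for KRT8 over KRT18, -0.18 for KRT8 over KRT19, 1.24 for KRT19 over KRT18 and -1.99 for VIM over KRT8. Shares of filament RPKM became 33.9% for KRT8, 16.2% for KRT18, 38.4% for KRT19, 0.667% for KRT10, 8.55% for VIM and 1.41% for NES. A pseudocount of 1 gave -2.53 for NES over VIM on the log2 scale.

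At a limit of 5 RPKM, type III and IV genes detected fell from 4 to 2, epithelial factors from 6 to 1, factors of the mesenchymal transition from 2 to 1, neural markers from 1 to 0, endothelial markers from 1 to 0, intestinal markers from 2 to 1 and mesothelial markers from 2 to 1. All 6 detected members passed that limit. The KRT18 copies of 1 exon, chosen after seeing the data, gave a library ratio of 0.887. No paired analysis was possible because the samples analysed here form 1 group. Under 0.5 RPKM the table gives no level, so the 4 genes at the floor cannot be ranked.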
